A study of Mus musculus with 12 samples.

Results

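Bone marrow stromal cells (BMSCs) marked with green fluorescent protein (GFP) were recovered from mice and compared with the same kind of cell in primary culture, across the genes that the cultured cells express. The 9 recovered libraries were HOMING, BM and TUMOR, with 3 libraries each, and the 3 cultured libraries were NC, so that all 12 libraries of the series were used. The HOMING group held GFP-BMSCs taken from the bone marrow of mice injected subcutaneously with GFP-BMSCs, and its label names no tumour cells. The BM group held GFP-BMSCs from the bone marrow of tumour-bearing mice, which had been given the cells together with RFP-LLCs, Lewis lung carcinoma cells marked with red fluorescent protein. The TUMOR group held GFP-BMSCs from the inoculation site of such co-injected mice, and NC primary cultured GFP-BMSCs. All groups were of the C57BL/6 strain with the genotype written as "wide type", and all, NC included, are labelled as sorted BMSCs. Age, time in the animal, the sort gate and its purity are not given in the sources used here, nor whether the libraries of a group came from separate animals or cultures. The p-values therefore measure the spread between these libraries, which may be technical, and passage through the animal, time outside culture and handling cannot be told apart.

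BMSCs are fibroblast-like cells that adhere to plastic, form bone, fat and cartilage, and support blood formation in the marrow. In culture they divide in rich medium on a stiff surface, and they then secrete matrix and assemble actin stress fibres. Genes of amino acid supply, sterol synthesis, contraction and cell division are known to respond to the supply of nutrients and to the surface that cells grow on.

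Expected counts and FPKM (fragments per kilobase, with each library brought to the same number of mapped fragments) were summed per gene, and 11061 of 21001 genes averaged 1 FPKM or more over the 3 NC libraries. A shared change was one in which all 9 recovered libraries lay on one side of all 3 NC libraries in FPKM, and in which the mean of the 3 recovered groups differed from NC at least 2-fold with an adjusted p under 0.05 in edgeR's quasi-likelihood test. Log2 fold changes are given ± SE, and without a named group they are those of the mean of the 3 recovered groups against NC. The SE reflects the spread of libraries within groups and not the differences among the recovered groups. All 9 recovered libraries lay above NC for 2699 genes (24.4% of those described) and below NC for 1653 (14.9%). Shared rises numbered 288 (2.60%) and shared falls 366 (3.31%). Without the one-side rule, 331 genes (2.99%) were called higher and 439 (3.97%) lower. The split between rises and falls moved with the scaling of libraries: scaling by library size alone gave 388 rises and 290 falls, and it moved the median log2 fold change of all described genes from -0.03 to 0.07. With counts scaled by trimmed means (TMM), the scaling of the test, all 9 libraries lay above NC for 2000 genes and below for 2397. Libraries held 43232145 to 46166519 expected counts.

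By the median, the shared falls were more abundant in culture than the shared rises, and close to all described genes. The NC level enters both the limit of 1 FPKM and the fold change, so this comparison is not independent of the calls. The median level in NC was 11.3 FPKM for the shared falls, 3.41 FPKM for the shared rises and 12.2 FPKM for all described genes. At the edge of that limit, Niban3 and Zfp618 averaged 1 FPKM in NC and were included, and Igf2bp1 and Syn1, with 0.997 FPKM, were not.

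The shared changes were not of one size in the 3 recovered groups. An F-test of equality among HOMING, BM and TUMOR called 1339 described genes (12.1%) at a difference of at least 2-fold, among them 123 of the 288 rises (42.7%) and 143 of the 366 falls (39.1%). The change reached at least 2-fold in each of the 3 groups for 95 rises and 148 falls. TUMOR was the highest recovered group for 182 rises, HOMING for 62 and BM for 44. Among the falls, BM was the group nearest to NC, and so the highest, for 236 genes, TUMOR for 77 and HOMING for 53. Over all 11061 described genes the highest recovered group was BM for 4228, TUMOR for 4180 and HOMING for 2653. Against the same 3 NC libraries, 419 genes (3.79%) were higher and 562 (5.08%) lower in HOMING, 337 (3.05%) higher and 405 (3.66%) lower in BM, and 658 (5.95%) higher and 765 (6.92%) lower in TUMOR. These 3 comparisons share their control libraries and are given side by side.

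**Figure D1:**
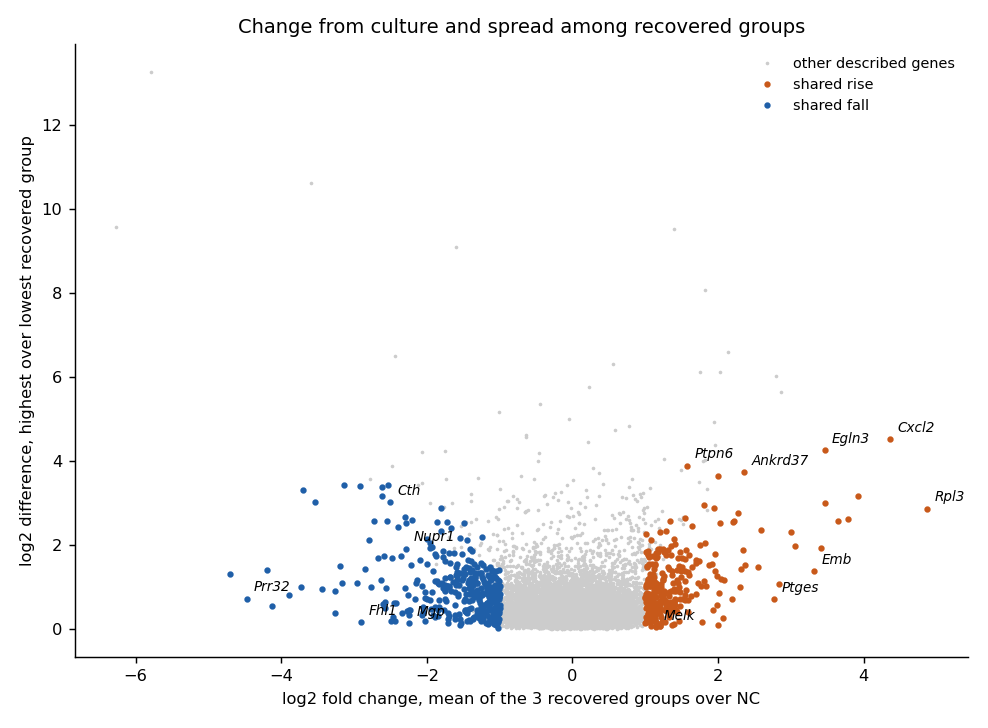
Each point is 1 of the 11061 described genes. The x axis is the log2 fold change of the mean of the 3 recovered groups over NC, and the y axis is the log2 difference between the highest and the lowest recovered group. Shared rises (288, orange) and shared falls (366, blue) lie outside 1 on the x axis; Melk, Fhl1 and Mgp lie near the x axis, and Cxcl2 and Egln3 differ by over 4 log2 units among the recovered groups.

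HOMING stood apart from the other groups in markers of blood cells. The summed level of 12 pan-leukocyte markers, such as Ptprc (CD45), was 2.33 to 3.32 FPKM in NC, 556 to 884 FPKM in HOMING, 39.8 to 40.6 FPKM in BM and 1.89 to 3.05 FPKM in TUMOR. The summed level of 10 measured erythroid markers, haemoglobin genes among them, was 0.67 to 1.29 FPKM in NC, 2112 to 3478 FPKM in HOMING, 3.53 to 4.08 FPKM in BM and 2.56 to 3.78 FPKM in TUMOR. Neutrophil markers (18 genes) summed to 348 to 446 FPKM in NC, 2726 to 4063 FPKM in HOMING, 418 to 442 FPKM in BM and 46.8 to 49.3 FPKM in TUMOR, and macrophage markers (15 genes) to 14.1 to 20.2, 222 to 360, 57.4 to 58.2 and 26.4 to 26.7 FPKM in the same order. In TUMOR the 14 epithelial and lung carcinoma candidate markers summed to 71.6 to 117 FPKM, against 3.17 to 5.51 FPKM in NC, 8.66 to 8.99 FPKM in HOMING and 12.1 to 13.1 FPKM in BM. Of these markers only Itgb2, Camp, Lcn2, Cd68 and Cd14 reached 1 FPKM in NC among the blood cell lists above, and Lcn2, which stromal cells also make, held 385 ± 50.7 FPKM (SD, n = 3) of the neutrophil sum there. Only Cd68 of them was a shared change. Among defining markers, Elane, Mpo, Ctsg and Cd52 were listed at 0 in all 3 NC libraries, and Mpo, Ctsg and Adgre1 in all 3 TUMOR libraries. The part of such RNA in the shared changes was not tested beyond leaving each group out in turn. In bulk libraries, fewer cells of a type and less RNA per cell cannot be told apart.

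Some markers of stromal cells were found in all 4 groups, and others were under 1 FPKM in NC. Of 22 stromal identity genes, 16 were expressed in NC. Eng, Thy1, Nt5e, Lepr, Alcam and Cd200 averaged under 1 FPKM there. No listed member was at 0 in any group. The summed level of the list was 2369 to 2845 FPKM in NC and 2841 to 2980 FPKM in HOMING. It was 2014 to 2040 FPKM in BM and 3738 to 3853 FPKM in TUMOR. Most of that sum was Vim and S100a4, which blood cells also make, with 1273 and 669 FPKM in NC, 1438 and 844 FPKM in HOMING, 866 and 472 FPKM in BM and 1926 and 1316 FPKM in TUMOR. Pdgfrb, a receptor of perivascular and stromal cells, was not called, with 14.9 ± 0.77 FPKM (SD, n = 3) in NC, 6.21 ± 0.15 FPKM in HOMING, 15.4 ± 0.51 FPKM in BM and 8.94 ± 0.86 FPKM in TUMOR. Shared falls were found for 2 of the 16 (against 3.31% of all described genes), Mcam and Cspg4, both surface proteins of perivascular cells, and 0 rose. Mcam had 12.2, 14.2 and 11.1 FPKM in the NC libraries, 2.95, 3.01 and 2.56 FPKM in HOMING, 3.01, 2.69 and 2.88 FPKM in BM and 3.96, 5.62 and 4.56 FPKM in TUMOR. Every recovered library was below the lowest NC library (log2 fold change -1.99 with an SE of 0.09, edgeR adjusted p = 1.3e-09). Cspg4, the NG2 proteoglycan, had 5.22, 6.94 and 9.51 FPKM in the NC libraries, 2.11, 2.22 and 2.07 FPKM in HOMING, 1.9, 2.04 and 1.66 FPKM in BM and 1.96, 2.57 and 2.56 FPKM in TUMOR. Here too the groups did not overlap (log2 fold change -1.88 with an SE of 0.14, edgeR adjusted p = 8.14e-08). Pdgfra, the receptor of platelet-derived growth factor that marks fibroblasts, was not called (log2 fold change 0.67 with an SE of 0.09, edgeR adjusted p = 1.75e-05). The positional HOX genes had 0 rises and 0 falls among 20 expressed members (against 2.60% and 3.31% of all described genes). Above NC in all 9 libraries lay 0 of them, and below NC 0 (against 24.4% and 14.9%). Their median log2 fold change was 0.003.

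Among the genes with the largest least change, the smallest of the changes in the 3 groups, 4 of the 12 named rises were ribosomal proteins with many processed pseudogenes. Rpl3 had 2.43, 2.19 and 1.4 FPKM in the NC libraries, 27.7, 26.2 and 40.05 FPKM in HOMING, 76.7, 76.4 and 82.1 FPKM in BM and 342, 182 and 194 FPKM in TUMOR. Levels were low in culture, intermediate in HOMING and BM and highest in TUMOR, with no overlap between groups (log2 fold change 4.87 with an SE of 0.26, edgeR adjusted p = 6.98e-09). Rpl26, Rpl29 and Rpl21, other proteins of the large subunit, followed the same order, with log2 fold changes of 3.65 ± 0.22, 3.92 ± 0.20 and 3.47 ± 0.20. Kpna2, an importin that carries proteins into the nucleus, also has close copies and had 1.5 ± 0.13 FPKM (SD, n = 3) in NC, 9.99 ± 1.76 FPKM in HOMING, 17.9 ± 0.35 FPKM in BM and 61.95 ± 22.6 FPKM in TUMOR. In that group of genes, reads may be split among near-identical copies, so the levels are uncertain. Of 32 cytosolic ribosomal protein genes, 3 rose (Rpl3, Rps2 and Rps18, against 2.60% of all described genes), 0 fell and the median log2 fold change was -0.12. Without TUMOR, 1 of the 3 remained.

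Other named rises were an enzyme, transporters, hormones and an oxygen sensor. Ptges, the synthase that makes prostaglandin E2, had 4.69, 4.19 and 5.66 FPKM in the NC libraries, 36.8, 34.9 and 46.1 FPKM in HOMING, 47.1, 47.6 and 46.4 FPKM in BM and 36.2, 25.5 and 26.5 FPKM in TUMOR. All 3 recovered groups were several times above culture, and BM was the highest of them (log2 fold change 2.77 with an SE of 0.14, edgeR adjusted p = 3.39e-09). Emb, a membrane partner of lactate transporters, had 1.13, 0.92 and 1.05 FPKM in the NC libraries, 9.28, 9.14 and 14.4 FPKM in HOMING, 6.97, 6.71 and 6.88 FPKM in BM and 25.8, 13.7 and 15.4 FPKM in TUMOR. The lowest recovered library, of BM, was still far above the highest NC library (log2 fold change 3.32 with an SE of 0.25, edgeR adjusted p = 1.03e-07). Slc16a3, the lactate exporter MCT4, had 5.74, 4.93 and 3.99 FPKM in the NC libraries, 23.4, 21.2 and 28.8 FPKM in HOMING, 25.8, 27 and 25.2 FPKM in BM and 173, 93.5 and 105 FPKM in TUMOR. HOMING and BM overlapped with each other and TUMOR was apart (log2 fold change 2.996 with an SE of 0.20, edgeR adjusted p = 4.5e-08). Kcnab2, a subunit of potassium channels, had log2 fold changes of 2.61 in HOMING, 2.29 in BM and 4.28 in TUMOR. Prl2c3 and Prl2c5 encode proliferins, hormones of the prolactin family that have near-identical relatives, so that the split of reads between them is uncertain. Prl2c3 had 14.6, 10.9 and 15.6 FPKM in the NC libraries, 288, 298 and 279 FPKM in HOMING, 74.7, 70.3 and 78.3 FPKM in BM and 148, 198 and 193 FPKM in TUMOR. HOMING was the highest group and BM the lowest of the recovered groups, in contrast to the ribosomal genes (log2 fold change 3.41 with an SE of 0.12, edgeR adjusted p = 2.06e-10). Egln3, a prolyl hydroxylase that senses oxygen, had 2.09, 1.44 and 1.78 FPKM in the NC libraries, 7.73, 7.14 and 8.72 FPKM in HOMING, 7.89, 7.85 and 7.55 FPKM in BM and 215, 115 and 126 FPKM in TUMOR. The TUMOR libraries stood apart from all others, and replicate 1 of TUMOR was the highest of the 12 (log2 fold change 3.47 with an SE of 0.22, edgeR adjusted p = 2.42e-08). That library was also the highest of the 3 TUMOR libraries for Rpl3, Emb, Kpna2, Kcnab2 and Slc16a3.

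Of the 12 named falls, 2 (Cdsn and P2rx3) were called different among the recovered groups. Prr32 had 7.38, 7.02 and 6.11 FPKM in the NC libraries, 0.23, 0.26 and 0.37 FPKM in HOMING, 0.4, 0.47 and 0.47 FPKM in BM and 0.22, 0.2 and 0.41 FPKM in TUMOR. All recovered libraries were far below culture (log2 fold change -4.47 with an SE of 0.15, edgeR adjusted p = 1.14e-10). Pla2g2e, a secreted phospholipase, had 11.1, 11.9 and 8.31 FPKM in the NC libraries, 0.92, 0.98 and 1.15 FPKM in HOMING, 1.18, 1.15 and 1.08 FPKM in BM and 1.36, 1.17 and 1.49 FPKM in TUMOR. The groups of recovered cells lay close together and far below culture (log2 fold change -3.27 with an SE of 0.12, edgeR adjusted p = 2.35e-10). Akr1b7, an aldo-keto reductase, and P2rx3, an ion channel opened by ATP, had log2 fold changes of -3.89 ± 0.15 and -3.17 ± 0.15. Cdsn, an adhesive protein best known from the outer skin, was the most abundant of the named falls, with 101.4, 112 and 135 FPKM in the NC libraries, 11.4, 11.3 and 10.04 FPKM in HOMING, 29.8, 29.5 and 27.7 FPKM in BM and 14.7, 17.8 and 17.03 FPKM in TUMOR. BM kept the highest level of the recovered groups and HOMING the lowest (log2 fold change -2.85 with an SE of 0.08, edgeR adjusted p = 2.52e-11). Nrcam, an adhesion molecule of the immunoglobulin family, had 20.9 ± 4.29 FPKM (SD, n = 3) in NC, 4.59 ± 0.07 FPKM in HOMING, 3.77 ± 0.04 FPKM in BM and 3.00 ± 0.70 FPKM in TUMOR. Pappa, a protease that releases insulin-like growth factors from a binding protein, had 5.08, 5.77 and 4.61 FPKM in the NC libraries, 0.94, 1.08 and 0.97 FPKM in HOMING, 1.15, 1.1 and 1.06 FPKM in BM and 1.07, 1.5 and 1.49 FPKM in TUMOR. Recovered levels were about as low in one group as in another (log2 fold change -2.28 with an SE of 0.08, edgeR adjusted p = 2.9e-10). The LIM-domain gene Fhl1, the coactivator Mn1 and Gask1b had log2 fold changes of -2.90 ± 0.20, -2.49 ± 0.13 and -2.44 ± 0.13. Mgp, an inhibitor of mineral deposition, had 4.37, 4.36 and 12.1 FPKM in the NC libraries, 1.83, 1.89 and 0.76 FPKM in HOMING, 1.53, 1.69 and 1.65 FPKM in BM and 1.08, 2.21 and 1.6 FPKM in TUMOR. The NC libraries themselves differed here, replicate 3 being the highest, and the standard error was the widest of the named falls (log2 fold change -2.24 with an SE of 0.32, edgeR adjusted p = 3.28e-05). Phyhd1 had a log2 fold change of -2.23 ± 0.08, and with its most abundant transcript alone the adjusted p was 0.003 but the one-side rule was no longer met.

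**Figure D2:**
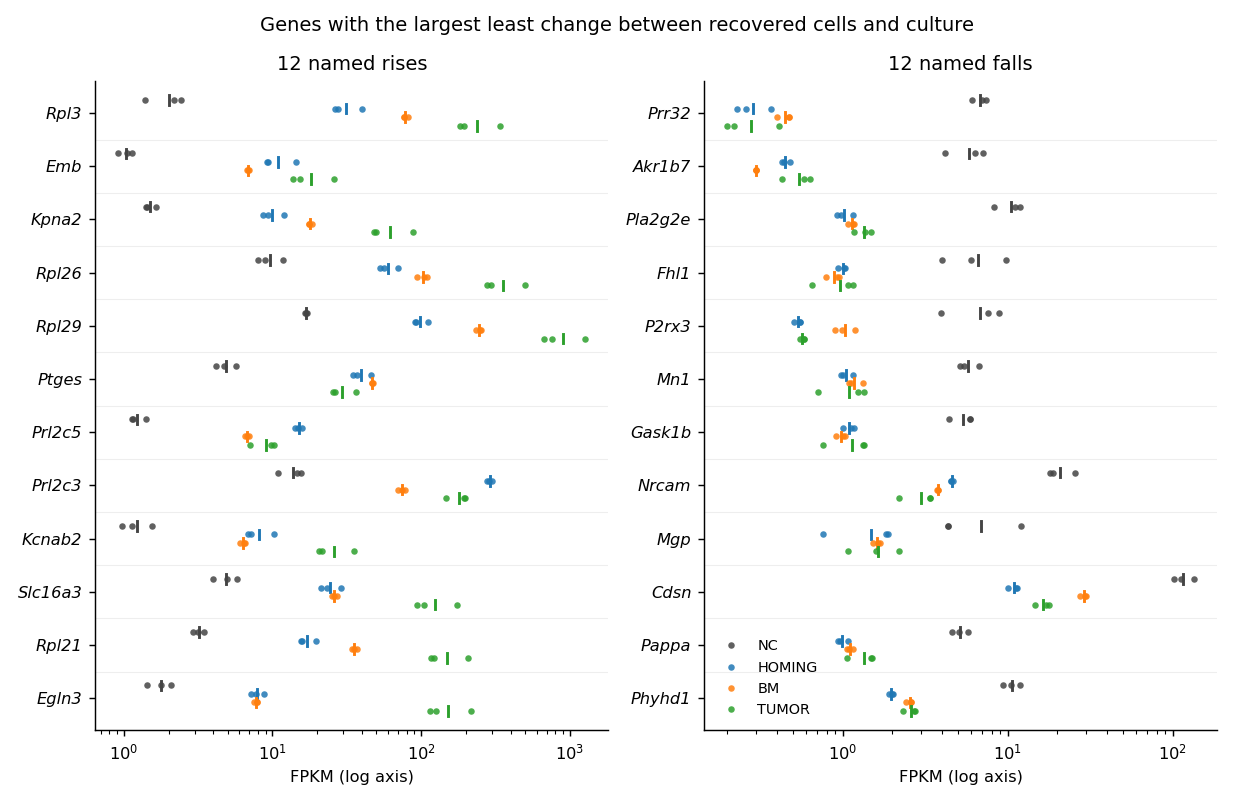
FPKM of the 12 named rises (left) and the 12 named falls (right) in each library, on log axes, with 3 points a group and a bar at the group mean. In every gene shown, the NC points lie on one side of all 9 recovered points; TUMOR lies far to the right for Rpl29, Rpl26, Rpl21, Rpl3 and Egln3.

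Many genes of amino acid supply were lower in all 9 recovered libraries, by the median least in BM. ATF4 is a transcription factor that is translated when amino acids are short or when proteins misfold in the endoplasmic reticulum, and it switches on genes for amino acid synthesis and import. Of 25 listed target and partner genes of ATF4, all expressed in NC, 14 fell (against 3.31% of all described genes) and 0 rose. Of the 25, 15 lay below NC in all 9 libraries (against 14.9%) and 0 above. Their median log2 fold change was -1.29, against -0.03 for all described genes, and it was -1.74, -0.24 and -1.79 in HOMING, BM and TUMOR. The composite motif that ATF4 and C/EBP factors bind is known from such genes, and 3 promoter stretches that hold it are shown because the genes fell in all 9 libraries. They are from RefSeq on GRCm38.p6 and run 5′ to 3′ in the direction of the gene, with the letters TGATGNAA in capitals, for Nupr1 as their reverse complement since the match is on the other strand. Pycr1 is at chr11:120643794-120643901, Nupr1 at chr7:126625523-126625630 and Asns at chr6:7693210-7693282, all on the minus strand.
Pycr1: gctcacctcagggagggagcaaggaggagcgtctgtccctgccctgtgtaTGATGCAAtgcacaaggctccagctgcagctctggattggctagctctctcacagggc
Nupr1: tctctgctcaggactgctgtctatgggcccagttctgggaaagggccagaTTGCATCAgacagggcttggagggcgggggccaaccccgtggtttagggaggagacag
Asns: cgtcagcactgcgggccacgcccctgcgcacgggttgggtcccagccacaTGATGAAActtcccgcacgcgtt

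Within 250 bases before and 50 bases after the gene start, this motif was found in 28 of 346 promoters of shared falls (8.09%), in 6 of 294 promoters of shared rises (2.04%) and in 234 of 11066 promoters of the 8647 described genes that had one (2.11%). Among the promoters of the ATF4 list it was found in 8 of 26 (30.8%). Outside that list it was in 7.19% of the promoters of falls, against 2.05% of all. The 27 falls with the motif included 4 of the list (Nupr1, Pycr1, Trib3 and Asns) and 23 others. Among those others, named after their values were seen, were Fgf21, a stress hormone, Pck2, the mitochondrial PEP carboxykinase, Got1, an aspartate aminotransferase, Slc1a4, a carrier of neutral amino acids, and the tRNA synthetase gene Yars, with log2 fold changes of -3.14 ± 0.24, -1.48 ± 0.04, -1.51 ± 0.05, -1.55 ± 0.06 and -1.33 ± 0.03. Other letters searched also differed in the falls. TGANTCA (AP-1) was in 37 of 346 of their promoters (10.7%) against 4.9% of all, and GGGCGG (GC box) in 51.2% against 64.8%. A match describes letters and is not a shown binding site.

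Several enzymes that make amino acids fell. Cth, which makes cysteine from cystathionine, had 95.9, 90.6 and 88.6 FPKM in the NC libraries, 12.9, 12.2 and 12.3 FPKM in HOMING, 56.9, 54.4 and 61.4 FPKM in BM and 6.2, 7.8 and 7.77 FPKM in TUMOR. TUMOR was lowest, HOMING next and BM between them and culture, with no overlap of groups (log2 fold change -2.51 with an SE of 0.05, edgeR adjusted p = 5.47e-12). Pycr1 and Aldh18a1 are the last and first steps from glutamate to proline. Pycr1 had 15.6, 17.1 and 15.5 FPKM in the NC libraries, 3.5, 3.21 and 3.14 FPKM in HOMING, 5.89, 5.79 and 6.21 FPKM in BM and 3.91, 3.86 and 3.8 FPKM in TUMOR. HOMING was lowest, TUMOR just above it, and BM again nearest to culture (log2 fold change -2.03 with an SE of 0.04, edgeR adjusted p = 5.99e-12). Aldh18a1 had 139, 139 and 139 FPKM in the NC libraries, 41.3, 40.04 and 41.3 FPKM in HOMING, 103, 105 and 97.7 FPKM in BM and 49.1, 48.9 and 50.2 FPKM in TUMOR. The NC libraries agreed to within 1 FPKM, and all recovered libraries were below them (log2 fold change -1.34 with an SE of 0.03, edgeR adjusted p = 8.2e-12). Psph and Phgdh of serine synthesis had log2 fold changes of -1.86 ± 0.05 and -1.03 ± 0.04, and Asns, which makes asparagine, of -1.15 ± 0.03. The mitochondrial folate enzymes Mthfd2 and Aldh1l2 had -1.23 ± 0.05 and -1.02 ± 0.04. Psat1, the middle step of serine synthesis, was not called, with 242 ± 33.4 FPKM (SD, n = 3) in NC, 205 ± 2.89 FPKM in HOMING, 279 ± 2.26 FPKM in BM and 185 ± 7.23 FPKM in TUMOR. Shmt2, which moves a carbon from serine to folate in mitochondria, was not called either, with 404 ± 11.8 FPKM (SD, n = 3) in NC, 201 ± 2.79 FPKM in HOMING, 405 ± 14.1 FPKM in BM and 199 ± 0.30 FPKM in TUMOR.

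Regulators and transporters of the same response fell with them. Nupr1, a small stress-induced chromatin protein, had 520.2, 507 and 422 FPKM in the NC libraries, 61.6, 62.8 and 53.2 FPKM in HOMING, 215, 217 and 229 FPKM in BM and 96.2, 91.2 and 87.6 FPKM in TUMOR. HOMING was lowest, then TUMOR, then BM (log2 fold change -2.28 with an SE of 0.06, edgeR adjusted p = 1.02e-11). Ddit3, the factor CHOP that is linked to cell death under stress, had 246, 263 and 284 FPKM in the NC libraries, 51.5, 55.7 and 49.5 FPKM in HOMING, 179, 183 and 196 FPKM in BM and 53.95, 64.3 and 59.9 FPKM in TUMOR. It was down several-fold in HOMING and TUMOR and less than 2-fold in BM (log2 fold change -1.77 with an SE of 0.06, edgeR adjusted p = 8.73e-11). Slc7a5 and Slc3a2 are the paired subunits of a carrier of large neutral amino acids. Slc7a5 had 296, 309 and 329.5 FPKM in the NC libraries, 85.5, 84.8 and 81 FPKM in HOMING, 195, 195 and 198 FPKM in BM and 85.5, 80.5 and 83.2 FPKM in TUMOR. All recovered libraries were below NC (log2 fold change -1.60 with an SE of 0.04, edgeR adjusted p = 1.14e-11). Slc3a2, Atf5 and the pseudokinase Trib3 had log2 fold changes of -1.08 ± 0.03, -1.46 ± 0.04 and -1.67 ± 0.05. Of the 14 falls, the change was at least 2-fold in HOMING for 14, in BM for 4 and in TUMOR for 13.

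BM was the exception in several members. Atf4 itself was not called, with 489 ± 15.4 FPKM (SD, n = 3) in NC, 308 ± 2.90 FPKM in HOMING, 565 ± 6.72 FPKM in BM and 304 ± 8.29 FPKM in TUMOR. Chac1, which degrades glutathione, had 192, 192 and 218 FPKM in the NC libraries, 25.3, 23.3 and 23.3 FPKM in HOMING, 228, 239 and 227 FPKM in BM and 19.1, 23.2 and 23.8 FPKM in TUMOR. HOMING and TUMOR were far below culture and BM slightly above it, so that it was no shared change. Atf3 and Sesn2 had log2 fold changes of -2.24 in HOMING, 0.64 in BM and -2.58 in TUMOR for the first and -2.46 in HOMING, 0.09 in BM and -1.79 in TUMOR for the second. Slc7a11, the importer of cystine, had 0.20 in HOMING, 0.89 in BM and -2.28 in TUMOR. An F-test called 18 of the 25 genes different among the recovered groups (against 12.1% of all described genes). The count of 14 falls stayed between 13 and 15 when any 1 library was left out, and Aldh1l2, Phgdh and Slc3a2 fell less than 2-fold when libraries were scaled by size alone.

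**Figure D3:**
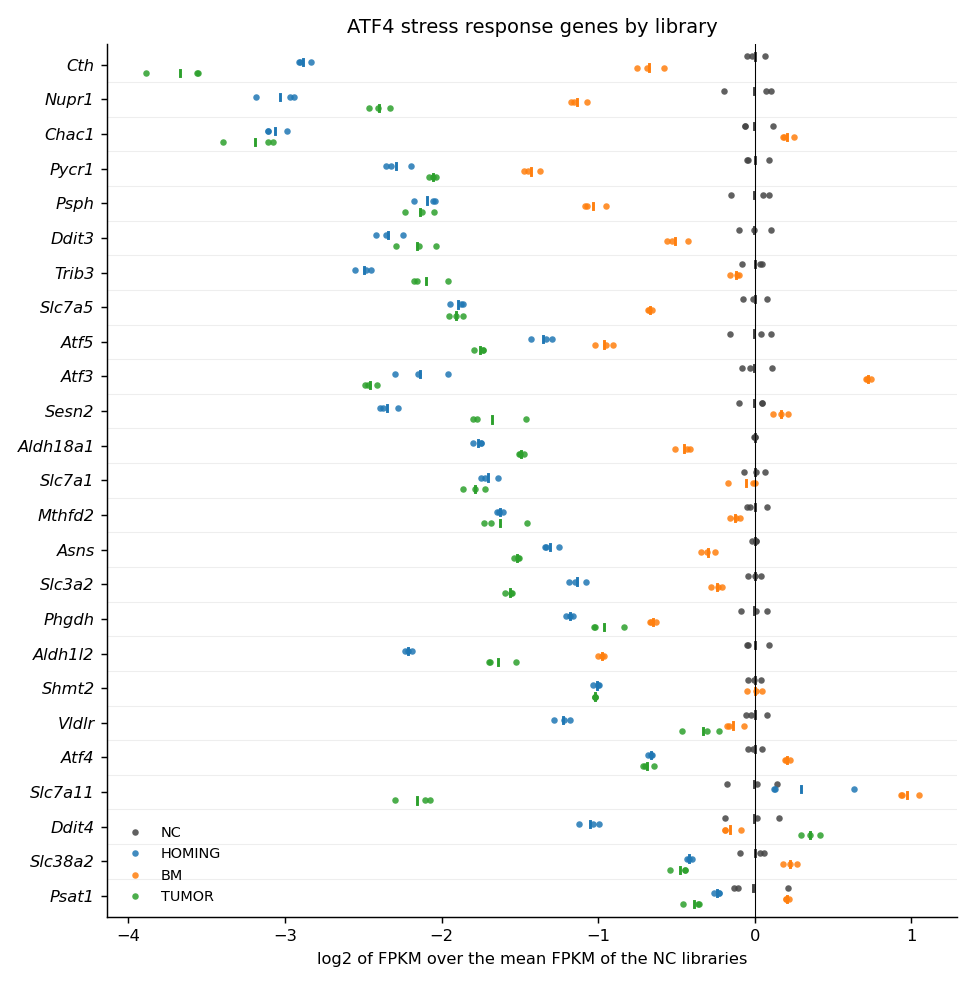
Log2 of the FPKM of each library over the mean of the NC libraries for the 25 ATF4 stress response genes, ordered by the log2 fold change of recovered cells over NC, with 3 points a group and a bar at the group mean. HOMING (blue) and TUMOR (green) lie left of NC for most genes, and BM (orange) lies between them and NC, or right of NC for a few, such as Chac1, Atf3, Sesn2 and Slc7a11.

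Translation genes that charge transfer RNA fell in part. Of 23 translation factors and tRNA synthetases, 5 fell (Wars, Yars, Eif1, Lars and Eif4ebp1, against 3.31% of all described genes) and 0 rose. The median log2 fold change was -0.49. Wars, which charges tryptophan transfer RNA, had 185, 183 and 169 FPKM in the NC libraries, 45.4, 44.99 and 46.2 FPKM in HOMING, 72.2, 71.2 and 70.4 FPKM in BM and 39.8, 39.6 and 39.5 FPKM in TUMOR. Recovered groups were all well below culture, TUMOR the lowest (log2 fold change -1.93 with an SE of 0.03, edgeR adjusted p = 4.98e-13). Eif1, which guards the choice of start codon, and Eif4ebp1, a brake on cap-dependent translation, had log2 fold changes of -1.08 ± 0.03 and -1.01 ± 0.04, close to the 2-fold limit. With scaling by library size 2 of the 5 remained, without TUMOR 2, and without BM 11 of the 23 fell. Among 19 chaperones of the endoplasmic reticulum, Hspa5 (BiP) and the factor Xbp1 fell (against 3.31%) and 0 rose, with 8 below NC in all 9 libraries (against 14.9%). Hspa5 had 674, 731 and 764 FPKM in the NC libraries, 310.1, 307 and 315 FPKM in HOMING, 443, 430.1 and 447 FPKM in BM and 314, 322 and 312 FPKM in TUMOR. No recovered library reached an NC library (log2 fold change -1.15 with an SE of 0.04, edgeR adjusted p = 1.44e-10). Xbp1 had a log2 fold change of -1.12 ± 0.05. Of 22 proteasome subunits and 29 nuclear subunits of the respiratory chain, 0 rose and 0 fell (against 2.60% and 3.31%). Of the proteasome subunits, 8 lay above NC in all 9 libraries and 3 below (against 24.4% and 14.9%). Of the respiratory chain subunits, 4 lay above and 8 below.

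Part of the cholesterol list rose. SREBP2, the product of Srebf2, is held in the endoplasmic reticulum while sterols are plentiful, and otherwise switches on sterol synthesis and uptake. Of 21 expressed genes of cholesterol synthesis and uptake, 9 rose (against 2.60% of all described genes) and 0 fell. Above NC in all 9 libraries lay 16 (against 24.4%). With TMM-scaled counts 14 did, against 2000 of 11061 described genes. The median log2 fold change was 0.74, and 0.72 in HOMING, 0.99 in BM and 0.80 in TUMOR. Called higher than NC were 7 members in HOMING, 10 in BM and 9 in TUMOR, and 1 was called lower in HOMING and 1 in TUMOR. Among genes with at least 5 FPKM in NC, which are fewer, 3 rose. Hmgcs1, the synthase that makes HMG-CoA, holds the sterol response element TCACNCCAC, which was found on either strand in 1 of 17 promoters of this list and in 1.06% of all promoters. The stretch from RefSeq at chr13:119690164-119690272 (GRCm38.p6, plus strand) is shown with the element in capitals.
Hmgcs1: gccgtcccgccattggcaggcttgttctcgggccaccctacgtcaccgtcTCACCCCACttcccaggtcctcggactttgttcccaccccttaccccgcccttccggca

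Srebf2 had 15.3, 13.9 and 13.7 FPKM in the NC libraries, 36.95, 34.5 and 36.9 FPKM in HOMING, 54.4, 56.5 and 52.99 FPKM in BM and 36.2, 33.5 and 35.5 FPKM in TUMOR. BM was the highest group, and HOMING and TUMOR overlapped with each other (log2 fold change 1.41 with an SE of 0.05, edgeR adjusted p = 1.39e-10). Fdps, which makes farnesyl diphosphate, had 10.6, 9.44 and 8.37 FPKM in the NC libraries, 26.5, 24.2 and 27.5 FPKM in HOMING, 52.8, 54.3 and 56.1 FPKM in BM and 28.9, 26.9 and 26.7 FPKM in TUMOR. As for Srebf2, BM was the highest group, and HOMING and TUMOR overlapped with each other (log2 fold change 1.73 with an SE of 0.06, edgeR adjusted p = 3e-10). Hmgcs1 had 4.23, 4.44 and 3.74 FPKM in the NC libraries, 8.52, 8.7 and 9.63 FPKM in HOMING, 8.94, 8.35 and 9.03 FPKM in BM and 12.4, 10.6 and 10.5 FPKM in TUMOR. TUMOR was highest here, and HOMING and BM overlapped (log2 fold change 1.11 with an SE of 0.07, edgeR adjusted p = 3.43e-08). Insig1, which retains the SREBP complex in the endoplasmic reticulum, had 4.87, 4.65 and 4.83 FPKM in the NC libraries, 7.95, 8.64 and 8.86 FPKM in HOMING, 12.1, 12.3 and 12.8 FPKM in BM and 11.5, 10.96 and 10.7 FPKM in TUMOR. All 9 recovered libraries were above the highest NC library (log2 fold change 1.03 with an SE of 0.05, edgeR adjusted p = 3.07e-09). Idi1, Acat2, Stard4 and Hsd17b7 had log2 fold changes of 2.08 ± 0.11, 1.40 ± 0.07, 1.40 ± 0.09 and 1.09 ± 0.09. Not every enzyme of the pathway rose: Msmo1 had log2 fold changes of -1.07 in HOMING, 0.53 in BM and -1.18 in TUMOR, and Cyp51 of -0.58 in HOMING, 0.49 in BM and 0.05 in TUMOR. CCAAT, on either strand, was in 14 of 17 promoters of the list (82.4%) and in 38.1% of all promoters. It is not particular to this list, being in 19 of 21 promoters of the mitosis list (90.5%) and 15 of 26 of the ATF4 list (57.7%).

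Genes of mitosis were above culture almost throughout. Of 25 mitosis genes, 23 lay above NC in all 9 libraries (against 24.4% of all described genes), 0 below, and 7 rose at least 2-fold (against 2.60%). With TMM-scaled counts 20 lay above, against 2000 of 11061 described genes. The median log2 fold change was 0.72, and 0.68, 0.61 and 0.71 in HOMING, BM and TUMOR. TTTGAA, the core of the cell-cycle homology region that represses such promoters in resting cells, is shown in capitals in stretches from Mki67 (chr7:135716422-135716527) and Ccnb2 (chr9:70421666-70421771), both on the minus strand in GRCm38.p6, because both genes rose.
Mki67: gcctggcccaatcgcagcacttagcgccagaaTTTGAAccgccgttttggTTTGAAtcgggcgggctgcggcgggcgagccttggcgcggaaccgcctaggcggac
Ccnb2: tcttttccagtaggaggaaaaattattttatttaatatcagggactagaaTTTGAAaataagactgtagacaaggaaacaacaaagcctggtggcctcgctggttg

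On either strand, TTTGAA was in 16 of 21 promoters of the mitosis list (76.2%), in 49 of 294 promoters of shared rises (16.7%), in 10.98% of the promoters of shared falls and in 11.9% of all. Aurkb, the kinase of the chromosomal passenger complex, had 13.8, 13.2 and 14.04 FPKM in the NC libraries, 57.2, 57.3 and 58.5 FPKM in HOMING, 48.1, 45.2 and 45.6 FPKM in BM and 70.2, 63.1 and 62.7 FPKM in TUMOR. TUMOR was highest and BM the lowest of the recovered groups, all far above culture (log2 fold change 1.92 with an SE of 0.05, edgeR adjusted p = 2.52e-11). Mki67, the source of the Ki-67 antigen, had 22.7, 23.6 and 23.3 FPKM in the NC libraries, 69.6, 72.3 and 76.2 FPKM in HOMING, 45.3, 49.01 and 44.5 FPKM in BM and 88.96, 87.3 and 90.95 FPKM in TUMOR. The groups kept the same order (log2 fold change 1.42 with an SE of 0.05, edgeR adjusted p = 8.83e-11). Ccnb2, a mitotic cyclin, had 13.03, 14.8 and 17.1 FPKM in the NC libraries, 32.5, 29.6 and 30.04 FPKM in HOMING, 27.03, 28.4 and 28.6 FPKM in BM and 71.4, 53.7 and 55.5 FPKM in TUMOR. HOMING and BM lay close together and TUMOR above them (log2 fold change 1.21 with an SE of 0.10, edgeR adjusted p = 3.58e-07). The kinetochore genes Cenpf, Cenpa and Cenpe and the spindle gene Nusap1 had log2 fold changes of 1.33 ± 0.11, 1.09 ± 0.11, 1.13 ± 0.12 and 1.01 ± 0.05. Without TUMOR 3 of the 7 calls remained, and without NC replicate 1 there were 4.

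In the replication list 1 gene of 25 rose (against 2.60% of all described genes). Above NC in all 9 libraries lay 11 members (against 24.4%), and 1 lay below. With TMM-scaled counts 7 lay above, against 2000 of 11061 described genes. Tk1 (thymidine kinase) alone was called (log2 fold change 1.08 with an SE of 0.05, edgeR adjusted p = 1.98e-09). Its call was lost without HOMING and without TUMOR. The median log2 fold change of this list was 0.14. In the G1 list of 13 genes, the cell cycle inhibitor Cdkn1a rose (against 2.60% of all described genes) and Ccnd1 (cyclin D1) fell (against 3.31%). Cdkn1a had 14.1, 13.4 and 25.8 FPKM in the NC libraries, 44.4, 42.4 and 43.6 FPKM in HOMING, 28.5, 29.7 and 29.6 FPKM in BM and 94.4, 76.2 and 80.8 FPKM in TUMOR. TUMOR was highest, and NC replicate 3 came near to BM (log2 fold change 1.31 with an SE of 0.17, edgeR adjusted p = 1.72e-05). Ccnd1 had 238, 262 and 301 FPKM in the NC libraries, 194, 194 and 177 FPKM in HOMING, 109, 108 and 110.2 FPKM in BM and 121, 150.4 and 151 FPKM in TUMOR. The fall was close to the 2-fold limit and lost its call under 11 of the alternatives, among them library size scaling and leaving out NC replicate 3, HOMING replicate 3 or TUMOR replicate 1 (log2 fold change -1.01 with an SE of 0.07, edgeR adjusted p = 8.16e-08).

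**Figure D4:**
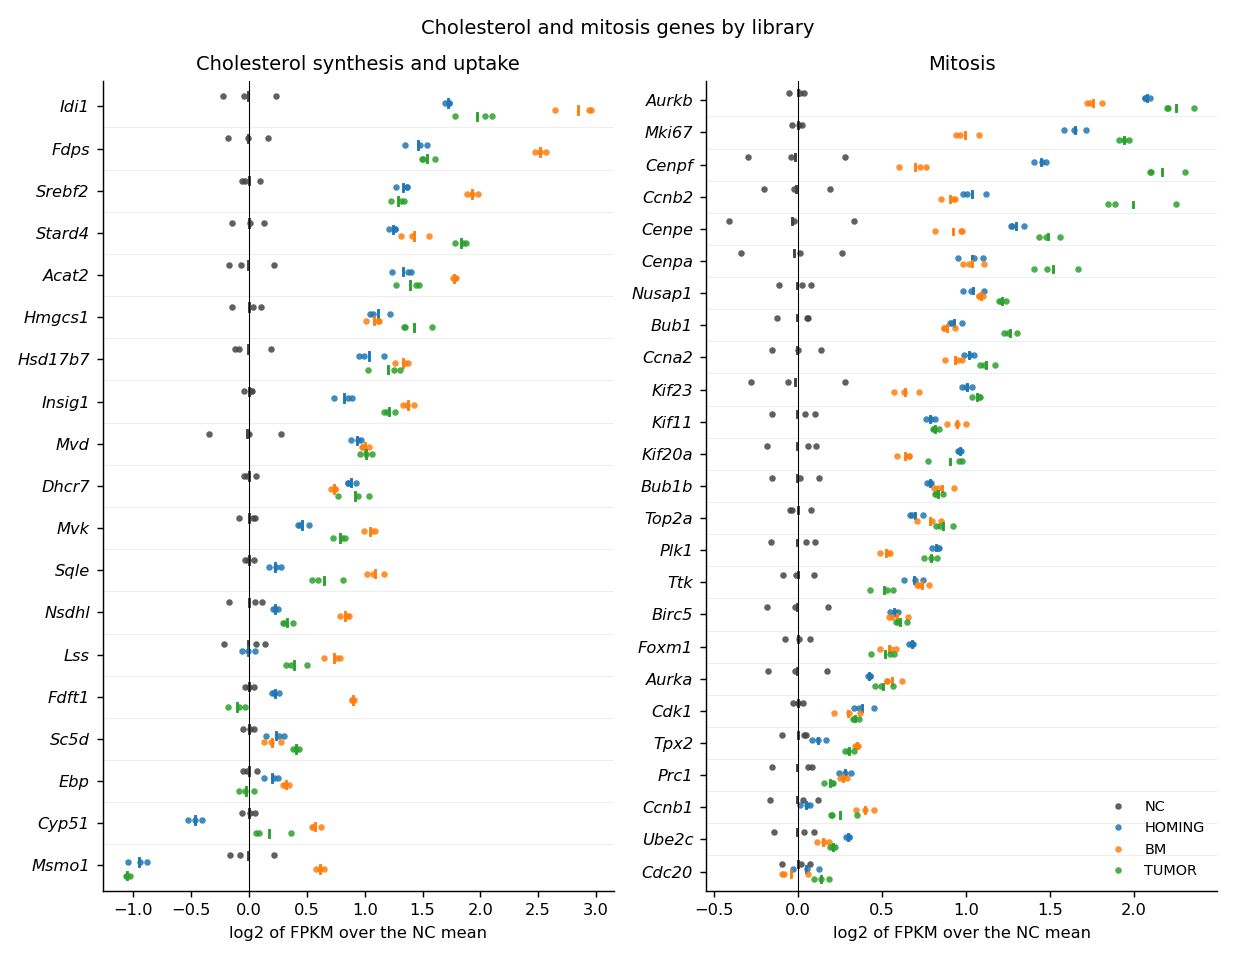
Log2 of the FPKM of each library over the mean of the NC libraries for 19 of the 21 cholesterol genes (left) and the 25 mitosis genes (right), ordered by log2 fold change, with 3 points a group and a bar at the mean of the log2 values. Most recovered points lie right of NC in both panels; Msmo1 and Cyp51 lie left of NC in HOMING, and Cdc20 and Ccnb1 lie near NC.

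More matrix genes fell than rose, and most were not called. Stromal cells build the fibronectin, collagen and elastic fibre networks of connective tissue. Of 28 expressed matrix glycoproteins and crosslinking enzymes, 8 fell (against 3.31% of all described genes), 2 rose and 13 lay below NC in all 9 libraries (against 14.9%), with a median log2 fold change of -0.53. With limma on log2(FPKM + 1) 4 of the 8 falls were left. Fn1, fibronectin, had 572, 582 and 564 FPKM in the NC libraries, 156, 152 and 152 FPKM in HOMING, 248, 248 and 217 FPKM in BM and 145, 182 and 187 FPKM in TUMOR. BM was the highest of the recovered groups, and none of their libraries came near culture (log2 fold change -1.74 with an SE of 0.06, edgeR adjusted p = 1.54e-10). Fbln5, which organises elastic fibres and whose promoter holds the C/EBP-ATF4 letters, had 11.9, 12.3 and 11.3 FPKM in the NC libraries, 1.49, 1.55 and 1.31 FPKM in HOMING, 4.37, 4.59 and 4.72 FPKM in BM and 1.53, 1.98 and 1.87 FPKM in TUMOR. The groups did not overlap with culture (log2 fold change -2.48 with an SE of 0.06, edgeR adjusted p = 8.2e-12). Tnc, tenascin C, had 40.3, 51.1 and 93.8 FPKM in the NC libraries, 18.2, 16.7 and 18.3 FPKM in HOMING, 22.2, 22.03 and 21.1 FPKM in BM and 5.94, 8.7 and 8.57 FPKM in TUMOR. NC libraries differed by more than 2-fold among themselves, yet all were above the recovered ones (log2 fold change -2.21 with an SE of 0.18, edgeR adjusted p = 2.52e-07). Ltbp1, which stores latent TGF-beta, Fbn1 (fibrillin), Mfap5, Loxl4 and Nid2 had log2 fold changes of -1.37 ± 0.12, -1.04 ± 0.07, -1.26 ± 0.11, -1.17 ± 0.07 and -1.47 ± 0.16. The rises were Nid1, a basement membrane protein, and Loxl2, a lysyl oxidase. Nid1 had 28.9, 26.9 and 36.5 FPKM in the NC libraries, 83.2, 82.9 and 84.2 FPKM in HOMING, 100.2, 98.4 and 89.9 FPKM in BM and 70.3, 74.8 and 76.1 FPKM in TUMOR. BM was the highest of the recovered groups and TUMOR the lowest (log2 fold change 1.34 with an SE of 0.09, edgeR adjusted p = 2.72e-08). Loxl2 had log2 fold changes of 0.51 in HOMING, 0.68 in BM and 2.42 in TUMOR and was not called without TUMOR.

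Of 16 expressed collagen chains, 3 fell (Col5a2, Col4a5 and Col4a2, against 3.31% of all described genes) and 1 rose (Col5a3, against 2.60%). Without NC replicate 3, TUMOR replicate 2 or TUMOR replicate 3, 2 collagens rose. Col5a2 of the fibrillar type had 64.5, 77.1 and 64.3 FPKM in the NC libraries, 24.8, 25.01 and 23.9 FPKM in HOMING, 26.6, 25.8 and 25.2 FPKM in BM and 22.1, 27.3 and 27.1 FPKM in TUMOR. The recovered groups lay close together (log2 fold change -1.55 with an SE of 0.06, edgeR adjusted p = 4.58e-10). Col5a3 had 1.62, 1.22 and 1.61 FPKM in the NC libraries, 4.76, 4.46 and 5.19 FPKM in HOMING, 16.6, 16.6 and 16.5 FPKM in BM and 2.41, 2.11 and 2.04 FPKM in TUMOR. BM was the highest and TUMOR only a little above NC (log2 fold change 1.81 with an SE of 0.09, edgeR adjusted p = 3.76e-09). Col1a1, the main collagen of bone, was not called, with 270.2 ± 10.9 FPKM (SD, n = 3) in NC, 179 ± 12.5 FPKM in HOMING, 212 ± 7.04 FPKM in BM and 211 ± 33.1 FPKM in TUMOR.

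A few contractile genes fell. Of 25 contractile and actin genes, 3 fell (against 3.31% of all described genes) and 0 rose. Below NC in all 9 libraries lay 8 (against 14.9%), and 0 lay above. With TMM-scaled counts 14 lay below, against 2397 of 11061 described genes. The median log2 fold change of the list was -0.38. Without NC replicate 1 there were 5 falls. The summed level of HOMING, 9402 to 10067 FPKM, lay within that of NC, 8665 to 10552 FPKM. Acta2, smooth muscle actin and a marker of activated fibroblasts, had 231, 357 and 435 FPKM in the NC libraries, 102, 103 and 93.05 FPKM in HOMING, 123, 124 and 114 FPKM in BM and 94.6, 141 and 137 FPKM in TUMOR. The NC libraries spread almost 2-fold, and all were above the recovered ones (log2 fold change -1.69 with an SE of 0.15, edgeR adjusted p = 3.85e-07). Tagln (transgelin) had 11.9, 18.7 and 27.3 FPKM in the NC libraries, 5.98, 5.82 and 5.01 FPKM in HOMING, 6.48, 6.42 and 6.13 FPKM in BM and 5.33, 8.37 and 8.36 FPKM in TUMOR. Its levels followed the same order in NC, replicate 3 being the highest (log2 fold change -1.70 with an SE of 0.19, edgeR adjusted p = 3.42e-06). Myl9, the myosin light chain, had log2 fold changes of -1.17 in HOMING, -2.35 in BM and -0.93 in TUMOR. YAP and TAZ with TEAD factors are known to drive genes when cells spread on stiff surfaces. Of 19 expressed targets, 3 fell (Ajuba, Amotl2 and Nuak2, against 3.31%), 0 rose and 9 lay below NC in all 9 libraries (against 14.9%). Amotl2, an angiomotin that binds YAP, had 106, 113 and 111 FPKM in the NC libraries, 54.6, 53.6 and 51.6 FPKM in HOMING, 49.9, 50.2 and 48.5 FPKM in BM and 47.6, 60.1 and 59.4 FPKM in TUMOR. The recovered groups lay close together (log2 fold change -1.17 with an SE of 0.06, edgeR adjusted p = 2.17e-09). Ccn1 and Ccn2, the most used markers of the pathway, were not called, with log2 fold changes of 0.40 in HOMING, -0.15 in BM and 0.18 in TUMOR for Ccn1 and 0.05 in HOMING, 0.15 in BM and -1.22 in TUMOR for Ccn2. GGAATG, the TEAD letters, was on either strand in 13.3% of the promoters of shared falls and 12.6% of those of shared rises, against 12% of all. In the contractile and actin list it was in 9 of 27 promoters (33.3%).

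Part of the antioxidant response list rose. NRF2 is a factor that is stabilised by oxidants and electrophiles and switches on glutathione and quinone metabolism. Of 21 expressed genes of this list, 6 rose (against 2.60% of all described genes) and 0 fell. Above NC in all 9 libraries lay 12 (against 24.4%). With TMM-scaled counts 9 did, against 2000 of 11061 described genes. The median log2 fold change of the list was 0.24. Gpx4, the peroxidase that repairs membrane lipids, was not called, with 733 ± 88.3 FPKM (SD, n = 3) in NC, 417 ± 22.4 FPKM in HOMING, 378 ± 19.4 FPKM in BM and 458 ± 17.2 FPKM in TUMOR. Nqo1, the quinone reductase, had 24.2, 23.96 and 29.7 FPKM in the NC libraries, 113, 116 and 103 FPKM in HOMING, 63.2, 62.9 and 63.5 FPKM in BM and 81.2, 99.6 and 97.03 FPKM in TUMOR. HOMING was the highest group and BM the lowest of the recovered ones (log2 fold change 1.63 with an SE of 0.08, edgeR adjusted p = 4.21e-09). Srxn1, which repairs oxidised peroxiredoxins, had 12.99, 12.4 and 14.4 FPKM in the NC libraries, 46.5, 45.6 and 48.1 FPKM in HOMING, 28.5, 27.7 and 26.9 FPKM in BM and 43.5, 41.2 and 42.5 FPKM in TUMOR. HOMING and TUMOR lay above BM, which still was about 2-fold above culture (log2 fold change 1.41 with an SE of 0.05, edgeR adjusted p = 3e-10). Gsr (glutathione reductase), Gsta4, Gclm and Osgin1 had log2 fold changes of 1.56 ± 0.08, 1.496 ± 0.08, 1.09 ± 0.05 and 1.12 ± 0.16. The smallest rises were in BM for all 6 genes. TGACNNNGC, the core of the antioxidant element, was on either strand in 7 of 23 promoters of the list (30.4%). It was in 10.9% of the promoters of shared rises and in 14.2% of all.

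The median change of the hypoxia targets was highest in TUMOR. Of 16 expressed members, 6 rose (against 2.60% of all described genes), 0 fell, and 14 differed among the recovered groups (against 12.1%). Their median log2 fold change was 0.33 in HOMING, 0.28 in BM and 1.35 in TUMOR. Pdk1, which keeps pyruvate out of mitochondria, had 10.7, 9.42 and 9.2 FPKM in the NC libraries, 14.4, 14.5 and 13.9 FPKM in HOMING, 17.4, 16.6 and 16.7 FPKM in BM and 45.1, 37.6 and 37.6 FPKM in TUMOR. TUMOR was apart from all others, and HOMING and BM were less than 2-fold above culture (log2 fold change 1.02 with an SE of 0.06, edgeR adjusted p = 2.62e-08). Bnip3, a mitophagy receptor, had 66.8, 47.3 and 35.6 FPKM in the NC libraries, 91.97, 89.4 and 86.9 FPKM in HOMING, 79.8, 76.2 and 76.7 FPKM in BM and 248, 229 and 228 FPKM in TUMOR. NC replicate 1 came near to the BM libraries (log2 fold change 1.14 with an SE of 0.13, edgeR adjusted p = 5.06e-06). Both calls were lost without TUMOR. Ankrd37 and Mxi1 had log2 fold changes of 2.36 ± 0.17 and 1.49 ± 0.10. Nos2, the inducible nitric oxide synthase and also a target of inflammatory factors, went the other way, with 5.6, 3.76 and 4.55 FPKM in the NC libraries, 33, 29.7 and 37.2 FPKM in HOMING, 66.1, 66.5 and 60.4 FPKM in BM and 14.1, 12.2 and 12.1 FPKM in TUMOR. BM was highest and TUMOR the lowest of the recovered groups (log2 fold change 2.60 with an SE of 0.12, edgeR adjusted p = 1.51e-09). Of 20 glycolysis genes, 13 lay above NC in all 9 libraries (against 24.4% of all described genes). With TMM-scaled counts 9 did, against 2000 of 11061 described genes. Of the 20 glycolysis genes, Slc16a3 and Pfkp (phosphofructokinase) were called (against 2.60%). Pfkp had log2 fold changes of 1.03 in HOMING, 0.73 in BM and 3.18 in TUMOR.

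Several immune genes were highest in HOMING, where leukocyte markers were also highest. Of 10 expressed antigen presentation genes, 4 rose (H2-D1, Tap2, Tapbp and Cd74, against 2.60% of all described genes) and 8 lay above NC in all 9 libraries (against 24.4%). Without NC replicate 2 there were 2 such rises. Of 12 interferon response genes, 3 rose (against 2.60% of all described genes), Ddx58 and Bst2 among them, and 0 fell. HOMING was the highest group for Tapbp, Cd74, Ddx58 and Bst2, and it was the group with 556 to 884 FPKM of pan-leukocyte markers, against 1.89 to 3.05 FPKM in TUMOR and 2.33 to 3.32 FPKM in NC. Without HOMING, 1 of the 4 antigen presentation calls and 0 of the 3 interferon calls remained. Cd74, the invariant chain of class II molecules of antigen-presenting cells, had 0.94, 1.5 and 0.94 FPKM in the NC libraries, 22.1, 21.5 and 34.4 FPKM in HOMING, 1.74, 2.06 and 2.36 FPKM in BM and 3.09, 1.68 and 1.75 FPKM in TUMOR. HOMING stood apart, and BM and TUMOR were slightly above NC (log2 fold change 2.005 with an SE of 0.25, edgeR adjusted p = 1.13e-05). Tap2, the peptide transporter of class I presentation, had 1.8, 1.1 and 1.15 FPKM in the NC libraries, 7.52, 6.57 and 9.62 FPKM in HOMING, 2.89, 2.89 and 3.19 FPKM in BM and 9.77, 6.32 and 6.36 FPKM in TUMOR. It was high in HOMING and TUMOR (log2 fold change 1.95 with an SE of 0.20, edgeR adjusted p = 1.66e-06), and it kept its call without HOMING. H2-D1, a class I heavy chain with close relatives whose reads may be shared, had log2 fold changes of 1.24 in HOMING, 0.44 in BM and 1.53 in TUMOR. Ptpn6 (SHP-1), a phosphatase of blood cells, had 1.73, 1.56 and 1.93 FPKM in the NC libraries, 29.1, 27.1 and 45.2 FPKM in HOMING, 2.32, 2.26 and 2.19 FPKM in BM and 2.42, 2.26 and 2.19 FPKM in TUMOR. It was a shared rise by the rule, yet BM and TUMOR exceeded NC by little and the call was lost without HOMING (log2 fold change 1.58 with an SE of 0.16, edgeR adjusted p = 1.89e-06). The macrophage marker Cd68, a lysosomal protein, had 5.89, 4.66 and 5.23 FPKM in the NC libraries, 40.1, 40.5 and 61.5 FPKM in HOMING, 7.94, 7.16 and 7.23 FPKM in BM and 12.4, 12.3 and 12.5 FPKM in TUMOR. BM and TUMOR were above culture as well (log2 fold change 1.54 with an SE of 0.14, edgeR adjusted p = 4.8e-07).

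Inflammatory genes changed by different amounts in the recovered groups. Cxcl2, a chemokine that attracts neutrophils, had 1.53, 1.65 and 2.43 FPKM in the NC libraries, 135, 131 and 194 FPKM in HOMING, 66.6, 69.7 and 72.3 FPKM in BM and 8.71, 5.53 and 5.94 FPKM in TUMOR. HOMING was highest, BM next and TUMOR a few-fold above culture, with no overlap (log2 fold change 4.36 with an SE of 0.21, edgeR adjusted p = 2.96e-09). Ccl8, another chemokine, had log2 fold changes of 2.17 in HOMING, 3.54 in BM and 0.96 in TUMOR. Its lowest TUMOR library was just above the highest NC library, and with TMM-scaled counts these overlapped. Of 17 NF-kB targets, 2 rose (Nfkbia and Tnip1, both inhibitors of the pathway, against 2.60% of all described genes) and 0 fell. Of the 17, 13 differed among the recovered groups (against 12.1%). Nfkbia had 55.8, 47.7 and 48.4 FPKM in the NC libraries, 142, 132 and 153 FPKM in HOMING, 149.5, 156 and 177 FPKM in BM and 132, 99.8 and 104 FPKM in TUMOR. All 9 recovered libraries were well above culture (log2 fold change 1.33 with an SE of 0.09, edgeR adjusted p = 6.45e-08). Without TUMOR, 8 of the 17 rose, and without NC replicate 3, 4 rose. In HOMING, where Cxcl2 was highest, neutrophil markers summed to 2726 to 4063 FPKM and macrophage markers to 222 to 360 FPKM. In TUMOR these sums were 46.8 to 49.3 and 26.4 to 26.7 FPKM, against 348 to 446 and 14.1 to 20.2 FPKM in NC. The part of these cells in the rises was not tested.

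Other groups of genes held a few shared falls. In the circadian clock list of 15 genes, Arntl (BMAL1) and Ciart fell (against 3.31% of all described genes) and 0 rose. Below NC in all 9 libraries lay 7 (against 14.9%). Ciart, a repressor of the clock, had 54.1, 53.5 and 53.2 FPKM in the NC libraries, 11.6, 12.3 and 12.5 FPKM in HOMING, 28.8, 28.5 and 27.7 FPKM in BM and 22.1, 20.2 and 20.6 FPKM in TUMOR. HOMING was lowest (log2 fold change -1.59 with an SE of 0.04, edgeR adjusted p = 1.04e-11). Arntl, the core activator, had 33.9, 39.3 and 52.5 FPKM in the NC libraries, 13.2, 13.9 and 12.6 FPKM in HOMING, 32.2, 32.3 and 32.5 FPKM in BM and 14.2, 15.5 and 15.4 FPKM in TUMOR. BM came close to the lowest NC library (log2 fold change -1.28 with an SE of 0.10, edgeR adjusted p = 1.13e-07). Ptx3, a secreted pattern recognition protein of stromal cells, had 775, 698 and 556 FPKM in the NC libraries, 125, 120.1 and 127 FPKM in HOMING, 337, 332 and 359 FPKM in BM and 31.8, 43.8 and 41.8 FPKM in TUMOR. TUMOR was the lowest and BM the highest of the recovered groups (log2 fold change -2.62 with an SE of 0.08, edgeR adjusted p = 8.56e-11). Csf1, the growth factor of macrophages, had 234, 285 and 296 FPKM in the NC libraries, 118, 118 and 118 FPKM in HOMING, 185, 188 and 178 FPKM in BM and 81.2, 91.1 and 88.95 FPKM in TUMOR. All recovered libraries were below culture (log2 fold change -1.22 with an SE of 0.06, edgeR adjusted p = 3.56e-09). Irs2, an adaptor of the insulin and insulin-like growth factor receptors, and Cited2, a transcriptional coregulator, had log2 fold changes of -1.05 ± 0.07 and -1.05 ± 0.04.

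The 4 most even shared changes were the rises of Rfc5, Melk and Depdc1a and the fall of Ccdc107. Rfc5, a subunit of the clamp loader, had 17.1, 16.5 and 18.7 FPKM in the NC libraries, 44.3, 43.98 and 45.2 FPKM in HOMING, 41.8, 40.8 and 41.4 FPKM in BM and 42.2, 43.2 and 44.2 FPKM in TUMOR. All 9 recovered libraries lay between 40.82 and 45.25 FPKM (log2 fold change 1.20 with an SE of 0.05, edgeR adjusted p = 3.46e-10). Melk, a kinase of dividing cells, had 9.73, 9.05 and 8.09 FPKM in the NC libraries, 21.2, 21.4 and 21.3 FPKM in HOMING, 21.7, 20.9 and 19.8 FPKM in BM and 22.8, 21.5 and 22.2 FPKM in TUMOR. All 9 recovered libraries lay between 19.82 and 22.82 FPKM (log2 fold change 1.15 with an SE of 0.05, edgeR adjusted p = 1.33e-09). Depdc1a and Ccdc107 had log2 fold changes of 1.18 in HOMING, 1.25 in BM and 1.17 in TUMOR for the first and -1.01 in HOMING, -1.03 in BM and -1.02 in TUMOR for the second. The most uneven were Cxcl2, Egln3, Ptpn6 and Ankrd37.

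**Figure D5:**
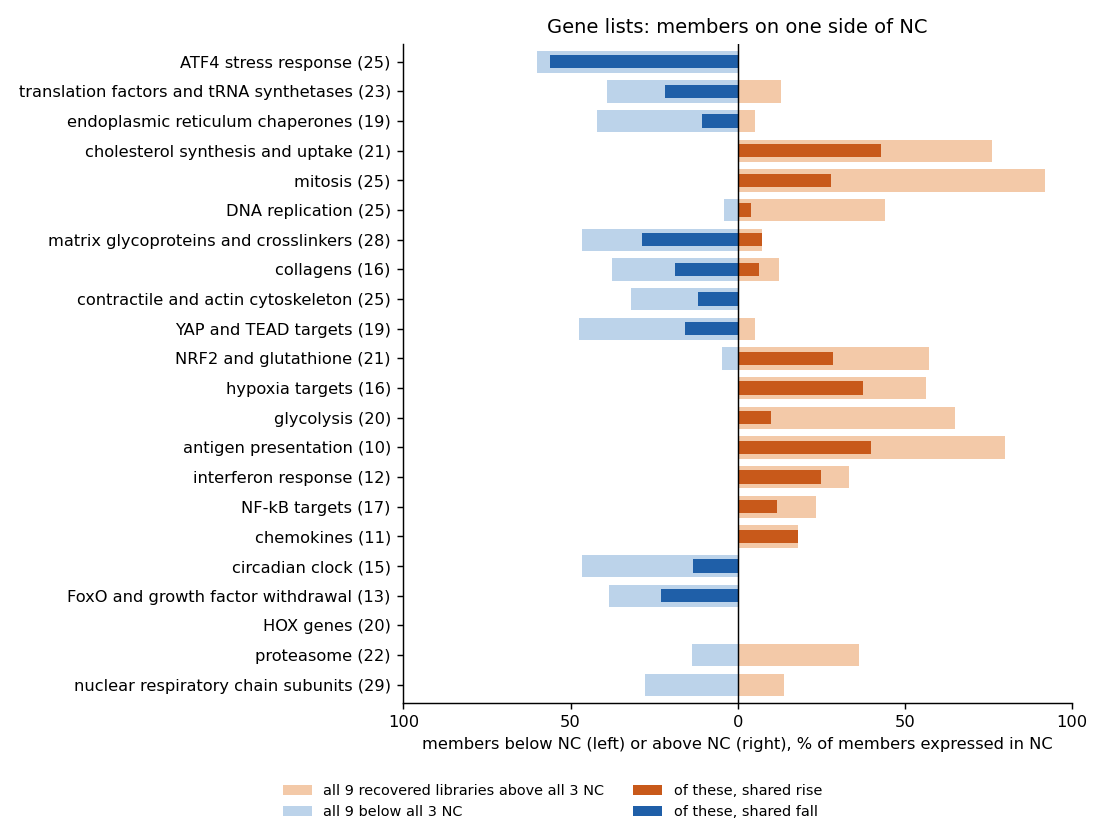
For 22 gene lists (number of members expressed in NC in parentheses), the share of members with all 9 recovered libraries above (right, light orange) or below (left, light blue) all 3 NC libraries, with the shared rises and falls in dark colours. The ATF4 list has 14 of 25 members as shared falls, the cholesterol list 9 of 21 as shared rises, and 23 of 25 mitosis genes lie above NC.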

How the data were processed

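The series holds 12 RNA libraries, 3 from NC and 3 from each recovered group, and the sample titles gave the groups. Per the labels, Trizol served for RNA extraction and the Illumina TruSeq RNA kit for library preparation. The submitters' processing notes name Bowtie 0.12.2 and the build mm8, and the counting program was not given in the sources used here. For each transcript the authors deposited 2 values. One is the expected count, an estimate of its reads without normalization, and the other is FPKM, which the authors scaled by transcript length and mapped fragments and rounded to 2 decimals. Transcripts not listed were set to 0, and both values were summed per gene. Of 19679 Entrez numbers among the 21001 genes, 19629 were matched to a symbol, and 2.08 to 2.65% of the counts fell on the 1322 other genes.

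Tests ran on 12314 genes that reached 1 FPKM in 3 or more libraries, and the 11061 with an NC average of 1 FPKM or more are described. Gene counts were rounded, scaled by TMM (factors 0.929 to 1.039) and fitted by group in edgeR 4.0.16 (R 4.3.3). The mean of the 3 recovered groups was set against NC in quasi-likelihood F-tests, which are two-sided, with Benjamini-Hochberg adjustment over all 12314 genes. Calls required an adjusted p below 0.05 together with a change of 2-fold or more, and shared changes also that the 9 recovered libraries all lay above, or all below, the 3 NC libraries in FPKM. Standard errors are the log2 fold change over the square root of F. Simulated counts for this contrast gave each changed gene the same fold in all 9 recovered libraries. On these data, 100% of 100 genes changed 3-fold and 100% of 100 changed 6-fold were called. Among the unchanged genes of the 12314 run, 1 was called. The simulation gives no error rate for changes near 2-fold or uneven among the recovered groups.

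The members and the 61 gene lists were chosen with earlier results of these data known. Genes were named among shared changes that reached 5 FPKM in NC or in the mean of the recovered groups: the 12 rises and 12 falls with the largest least change, and the 4 most and 4 least even among the recovered groups. Up to 4 called members of a described list, those of smallest adjusted p, were named too, and other genes were chosen after their values were seen. Lists are described by counts and medians, with no set test. Some list members are counted but not reported here by name. RefSeq promoters (GRCm38.p6, 250 bases before to 50 after a start) of 8647 described genes were searched on both strands for 12 motifs, 3 of which (the sterol response element, CCAAT and TTTGAA) were added after the data were seen. Deviations of same-numbered libraries of different groups correlated weakly (r from -0.12 to 0.224 over 18 pairs, against -0.154 to 0.199 for other numbers). The numbers were therefore not used as pairs in the main fit, which does not exclude pairing. Alternatives were DESeq2 1.42.0, limma 3.58.1 with 1 or 0.1 FPKM added before taking log2, other scalings, filters and models, and leaving out each group and each library. Python 3.11.15, pandas 2.3.3 and matplotlib 3.10.9 made the tables and plots.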

Additional observations from a re-analysis of the deposited data

Results flagged for a closer look

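The genes named here are shared changes of the text whose 3 recovered groups differed by the F-test of equality and by at least 2 log2 units between the highest and the lowest group, so that one shared change covers effects of very different size. TUMOR was the highest group for Rpl3 (2.87), Kpna2 (2.62), Rpl26 (2.57), Rpl29 (3.18), Rpl21 (3.00), Slc16a3 (2.31), Egln3 (4.27), Ankrd37 (3.73) and Pfkp (2.45), the value in each case being the log2 difference between the highest and lowest recovered group. HOMING was the highest for Cxcl2 (4.52), Ptpn6 (3.90), Cd74 (3.63) and Cd68 (2.63). BM was the highest for Nos2 (2.37), Col5a3 (2.96) and Ccl8 (2.58), and it was the least lowered for Cth (3.03), Trib3 (2.40), Ptx3 (3.18), Fgf21 (3.43) and Slc1a4 (2.16).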

How the results depend on the processing

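Counts of calls are given in the order of the change. With limma on log2(FPKM + 1) there were 185 shared falls, 319, 177 and 419 genes lower in HOMING, BM and TUMOR, and 159 shared changes that differed among the recovered groups, against 366, 562, 405, 765 and 266. For genes with at least 5 FPKM in NC, which are fewer, there were 112 shared rises, 166 higher and 372 lower in HOMING, 136 and 203 in BM, 276 higher in TUMOR and 133 differing. With a mean of at least 1 FPKM over the 4 groups, which admits genes low in NC, there were 534 shared rises, 899 genes higher in HOMING, 755 in BM and 451 differing. With no minimum change there were 2587 shared rises and 1653 falls, 3421 and 4220 genes higher and lower in HOMING, 3442 and 3892 in BM, 3876 and 4411 in TUMOR, and 3246 differing. Without BM there were 572 shared falls and 153 differing, and without TUMOR 167 differing. Leaving out 1 library gave 275 to 341 shared rises, 321 to 370 falls, 410 to 465 higher and 529 to 562 lower in HOMING, 306 to 395 and 365 to 410 in BM, 602 to 731 and 684 to 814 in TUMOR, and 247 to 288 differing. The other counts over all described genes stayed within 1.5 times. Counts of calls per gene list moved by more than that 219 times when a setting or group was changed (1413 times they did not) and 39 times when 1 library was left out (1113 times they did not).

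With the replicate number as a block there were 289 rises and 366 falls, and 652 of the 654 shared changes were kept. With the 9 recovered libraries fitted as 1 group, 597 of the 654 were kept. Trib3, Mthfd2, Slc1a4 and Loxl2 then had adjusted p of 0.101, 0.0626, 0.0683 and 0.0572 in edgeR. Ptpn6, Cd74, Cd68 and Rps2 had 0.102, 0.069, 0.0526 and 0.0641. All of these genes lost the call in that fit. Of 127 genes followed, 74 were shared changes under every alternative run for them, and 53 lost the call under at least 1, 15 of them on leaving out 1 library. Aldh1l2 alone changed sign, to 0.0634 on the log2 scale (adjusted p = 0.253, edgeR) with its most abundant transcript in place of the gene sum, and the cause was not tested. Shares of rises among shared changes were 44.04% as reported, 57.23% with library size scaling, 57.08% and 56.99% with limma at a pseudocount of 1 and 0.1 FPKM, 31.11% at 5 FPKM in NC, 62.75% with the mean over 4 groups and 61.01% with no minimum change. Genes near 1 FPKM rest on the fewest counts of those described.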
